A study of Mus musculus with 10 samples.

Results

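The 40 genes described here encode proteins of the presynaptic terminal: components of synaptic vesicles, the machinery that docks and fuses them, the active zone scaffold, the endocytic proteins that retrieve vesicle membrane, and the transporters that fill vesicles with transmitter. They were picked by symbol for their known role, with earlier results of these data known, and all 40 were found among the 22373 genes of a table of ribosome footprint counts. Each of the 40 also passed the filter on low counts that kept 13484 genes. The counts came from ribosome profiling (Ribo-seq), which sequences the messenger RNA fragments that a translating ribosome shields from nuclease. Neocortex was dissected from wild-type CD-1 mice of timed pregnancies at embryonic days E12.5, E14, E15.5 and E17 and on the day of birth (P0), with 2 libraries at each of these 5 stages and 10 in all. No animal was treated or carried a mutation, and each library was made from a pool of brains of both sexes, with more brains in the pools of the younger stages. A replicate was therefore a pool and not an animal. Tissue was digested with RNase T1 and RNase A without cycloheximide, and fragments were recovered from the 80S fraction.

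A synaptic vesicle is loaded with transmitter by a vesicular transporter, is tethered near the active zone and is primed there for fusion. Fusion is driven by the zippering of a vesicle SNARE protein with SNARE proteins of the plasma membrane, and calcium sensors of the synaptotagmin family time it. In the developing neocortex, progenitors near the ventricle produce neurons through the embryonic stages, and axons and their first synapses form largely after the neurons have left the cell cycle. Many presynaptic proteins are made before synapses are numerous, and several also act in axon growth and in general membrane traffic.

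Library totals ranged from 7544404 counts in P0 replicate 1 to 36129988 in E14 replicate 2. The 2 P0 libraries differed most from each other: the log2 ratio of replicate 1 to replicate 2 had an SD of 0.54 over 4559 well-covered genes at P0 and of 0.13 to 0.22 at the other stages, and over the 40 presynaptic genes an SD of 0.39 at P0 and 0.17 to 0.30 elsewhere. Ribosome footprints of 10 general neuron markers were abundant at every stage, with summed values of 2394 to 2429 CPM (counts relative to the library size, scaled by TMM factors) at E12.5 and 10419 and 11833 CPM at P0. Markers of neural progenitors summed to 1411 and 1956 CPM at P0 and to 2127 to 2474 CPM at the other stages. From E15.5 on this sum was mostly Fabp7, whose mean was 969 CPM at E12.5, 2054 at E17 and 1486 at P0. The median log2 fold change of the progenitor markers from E12.5 to P0 was -2.68. Of the progenitor markers, 9 of 10 were called lower and 1 (Fabp7) higher from E12.5 to P0. Markers of cortical excitatory neurons summed to 554 and 552 CPM at E12.5 and 3047 and 3919 CPM at P0 (5 of 10 called higher and 1 lower), and those of astrocytes and the oligodendrocyte lineage to 36.1 and 39.9 CPM and 172 and 134 CPM (7 of 8 higher). Markers of red blood cells (8 genes) fell from 11014 and 11400 CPM at E12.5 to 1861 and 1438 CPM at P0.

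Footprints on the presynaptic genes, summed over the 40, were more frequent at each later stage. The sum measured 952 CPM in each E12.5 library, 1281 and 1300 (E14), 2523 and 2586 (E15.5), 3016 and 3165 (E17), and 4045 and 4264 (P0). No stage overlapped another, and the mean at P0 was 4.36-fold that at E12.5. As a share of all unscaled counts the 40 genes took 0.0769% to 0.0810% at E12.5 and 0.493% to 0.501% at P0, a 6.29-fold rise, and this value differs from the scaled one because TMM factors differ between stages. Rab3a, which codes for the main GTPase of synaptic vesicles, supplied between 21.5% and 30.5% of the presynaptic footprints in every library.

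**Figure D1:**
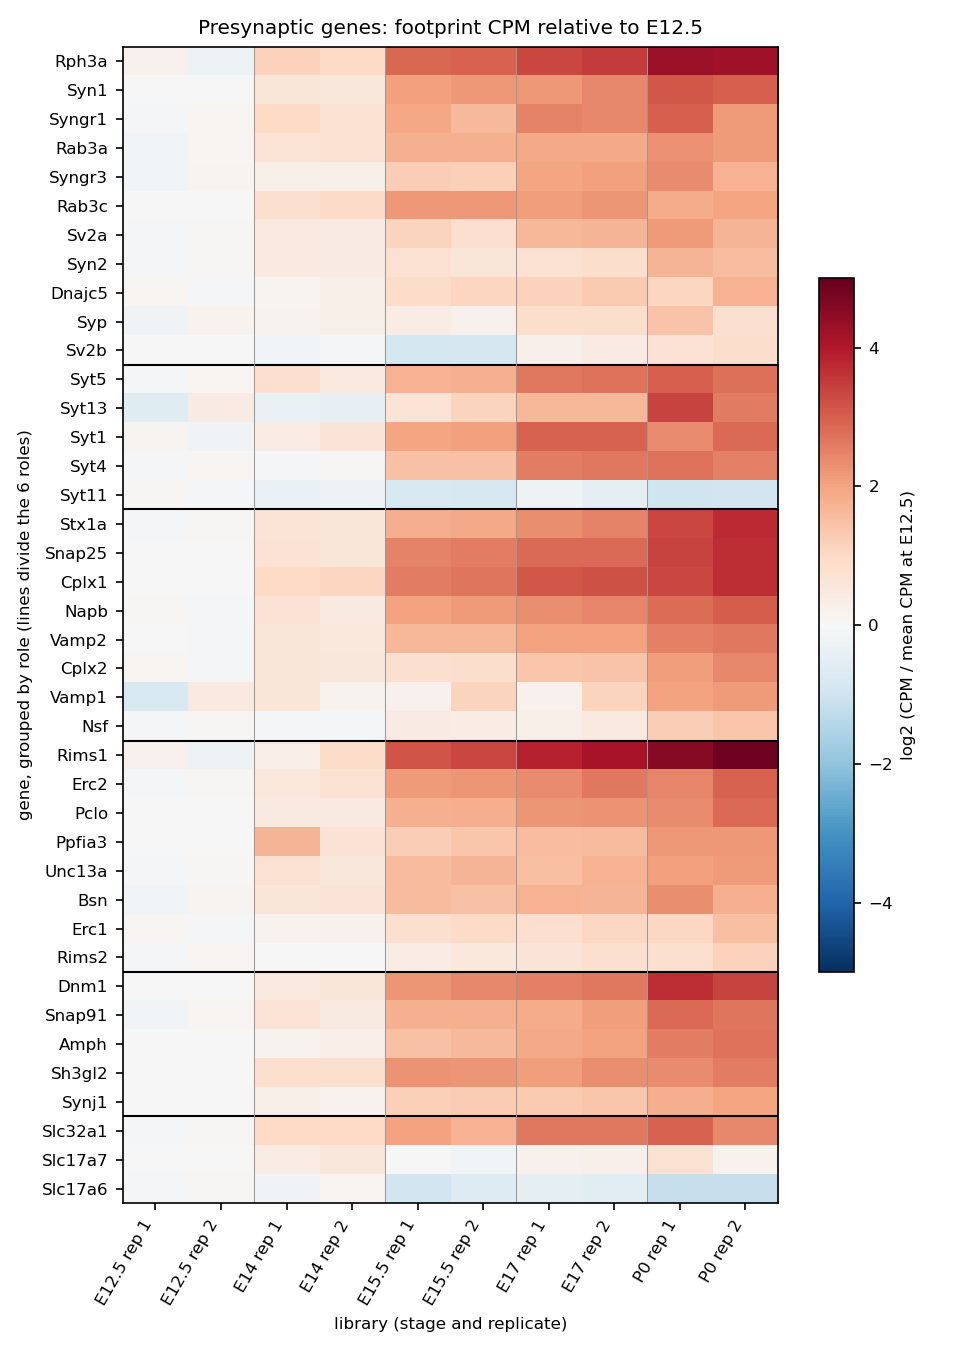
Footprint CPM of each of the 40 presynaptic genes (rows, grouped by role and sorted within a role by the fitted change from E12.5 to P0) in each of the 10 libraries (columns), as log2 of the ratio to that gene's mean at E12.5, in a colour scale from -5 to 5. Most rows turn red at E15.5, while Syt11 and Slc17a6 end in blue and Sv2b is blue at E15.5 only among the stages after E14.

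Between E12.5 and P0, 37 of the 40 genes were called higher, 2 were called lower and 1 was not called, where a call required an adjusted p below 0.05 and an absolute log2 fold change of 0.32 or more (limma-voom over all genes kept, Benjamini-Hochberg). Of all 13484 genes tested, 30.1% were called higher and 32% were called lower in the same comparison. The median log2 fold change of the 40 was 2.35, with quartiles of 1.78 and 2.73 and a range from -1.14 to 4.77, beside a median of -0.01 over all genes. The genes that fell were Syt11 and Slc17a6, and the gene that was not called was Slc17a7.

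**Figure D2:**
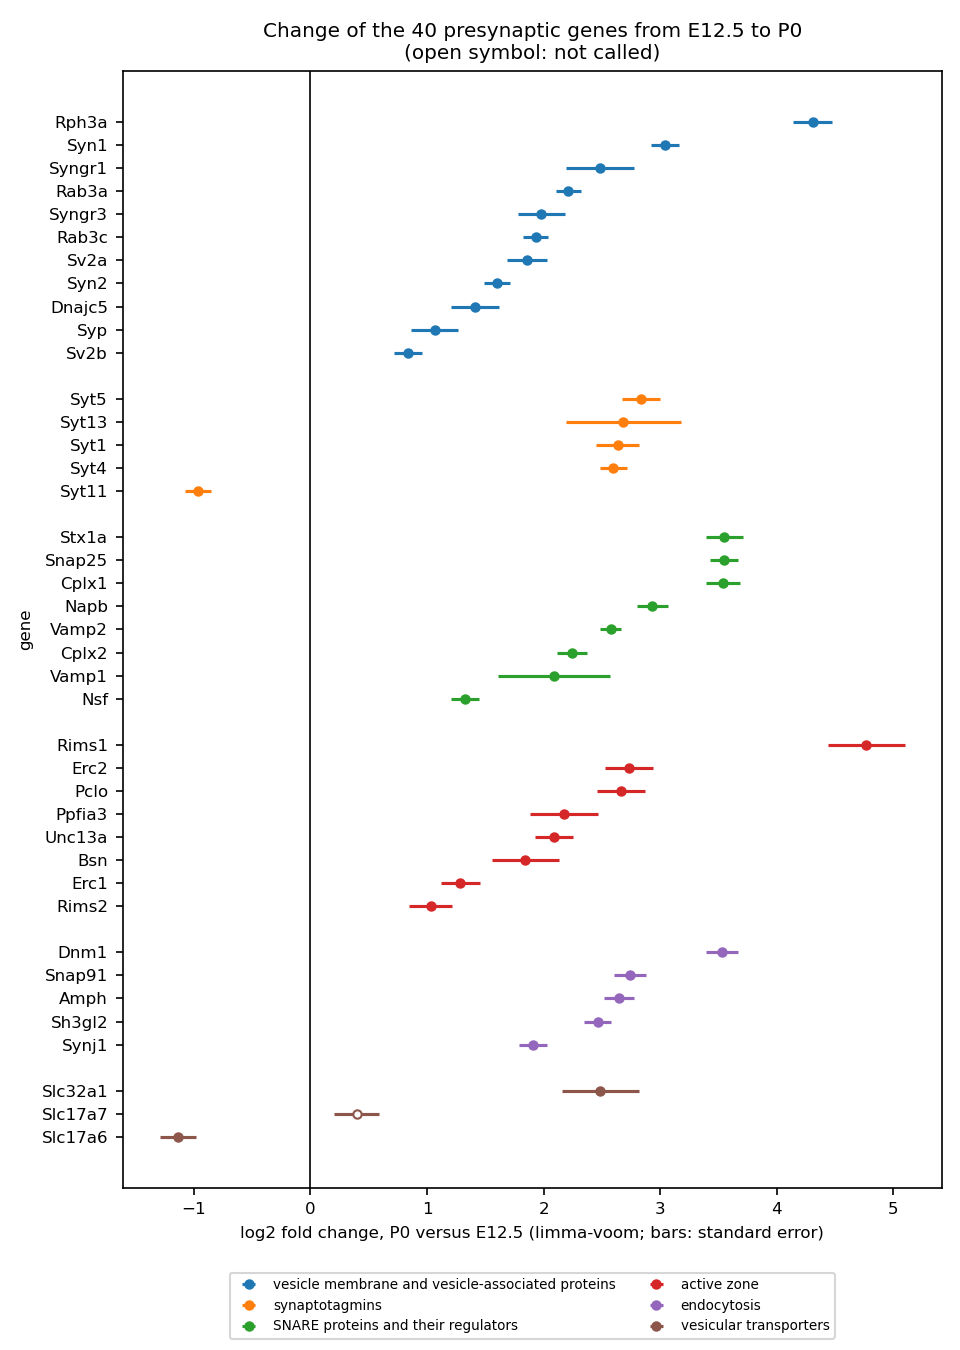
Fitted log2 fold change from E12.5 to P0 (horizontal axis) of each presynaptic gene (vertical axis), coloured by role, with bars of 1 standard error and an open symbol for the gene that was not called. Values run from -1.14 for Slc17a6 to 4.77 for Rims1, and 38 of the 40 lie to the right of 0.

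The rise was not spread evenly over the steps. From E12.5 to E14, 6 of the 40 were called higher and 0 lower, where the background was 0.497% higher and 0.141% lower, and the median log2 fold change was 0.56. From E14 to E15.5, 29 were called higher and 4 lower (background 16.5% and 19.6%), with a median of 1.03. From E15.5 to E17, 13 were called higher and 0 lower (background 5.61% and 3.43%), with a median of 0.32. From E17 to P0, 18 were called higher and 2 lower (background 9.46% and 11.1%), with a median of 0.42. At an unadjusted p under 0.05, 1 gene (Syt11) was lower at E14 and 0 were lower at E17, and edgeR and DESeq2 also called 0 lower at both of these steps. The largest single rise of a gene fell on the step from E14 to E15.5 for 28 of the 40 genes, on the step to E14 for 3 (Ppfia3, Slc17a7 and Slc32a1), on the step to E17 for 5 (Syp, Sv2a, Sv2b, Syt11 and Slc17a6) and on the step to P0 for 4 (Syn2, Vamp1, Cplx2 and Nsf).

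These directions are relative to the bulk of genes. With libraries scaled by their total counts alone, the median of all genes moved to 0.29 from E14 to E15.5 and to 0.51 from E12.5 to P0, and the medians of the 40 lay 1.04 and 2.37 above it, beside 1.04 and 2.37 with TMM factors. The share of higher calls among all genes called was 77.9%, 45.6%, 62.1%, 46.1% and 48.5% at the 4 steps and over the whole period with TMM factors, and 90.9%, 72.7%, 71.0%, 63.4% and 72.0% with total counts. The fall of Syt11 and of Slc17a7 at E15.5 was not called with total counts, and 40 of the 40 were called from E12.5 to P0, Slc17a7 among them as higher (0.92).

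The count at the first step changed with the libraries fitted, and the cause was not tested. Calls over all genes moved as well. At E14, 67 of 13484 genes were called higher in the main fit and 612 of 13121 without both P0 libraries. At E17 these counts were 757 and 1764. When only the E17 and P0 libraries were fitted, 0 of 12995 genes were called in either direction. All-gene calls at E14 also fell when any embryonic library was left out. With either P0 library left out, 18 of the 40 were called higher at E14, and also 18 with both left out, whereas 0 were called when any 1 of the 8 embryonic libraries was left out, with 18 to 24 at an unadjusted p under 0.05. The step from E15.5 to E17 likewise gave 20 calls without the P0 libraries, and 0 without E15.5 replicate 1, E15.5 replicate 2 or E17 replicate 2, 1 without E17 replicate 1, 4 without either E14 library and 6 without either E12.5 library. At the step from E17 to P0, 6 were called without E17 replicate 1, and 0 when only the E17 and P0 libraries were fitted, with 21 at an unadjusted p under 0.05. Over the whole span from E12.5 to P0, leaving out any 1 library gave 39 or 40 calls.

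The proteins of the vesicle membrane and its surface formed the largest role group, with 11 genes, and all 11 were called higher at P0 than at E12.5. Rph3a (ENSMUSG00000029608) encodes rabphilin, which binds Rab3 proteins on the vesicle. It measured 3.19 and 2.28 CPM at E12.5, 6.10 and 5.48 (E14), 20.0 and 20.9 (E15.5), 27.8 and 31.0 (E17), and 54.6 and 51.3 (P0). Each stage lay above the one before with no overlap. The log2 fold change from E12.5 to P0 was 4.31 with a standard error (SE) of 0.17 (limma-voom, adjusted p = 5.74e-07). In the main fit Rph3a was the only 1 of the 40 besides Vamp2 to be called higher at all 4 steps. For both genes the call at E14 was lost when any embryonic library was left out. Their calls at E17 were lost when any E14, E15.5 or E17 library was left out. Vamp2, the vesicle SNARE protein of most forebrain synapses, measured 69.5 and 65.8 CPM at E12.5 and 383 and 424 CPM at P0.

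The synapsins, which tether vesicles to one another and to actin, did not rise in step. Syn1 measured 10.01 and 9.76 CPM at E12.5, 15.1 and 14.8 (E14), 40.8 and 44.5 (E15.5), 44.0 and 51.8 (E17), and 84.7 and 79.0 (P0). Syn2 measured 14.7 and 16.3 CPM at E12.5, 22.0 and 20.5 (E14), 26.0 and 23.9 (E15.5), 26.6 and 28.2 (E17), and 50.03 and 44.96 (P0). Syn1 thus gained most at the E15.5 step, by 1.51 on the log2 scale (SE 0.11), a step at which Syn2 was not called (0.24, SE 0.11, adjusted p = 0.131). The log2 ratio of Syn1 to Syn2 counts moved from -0.65 at E12.5 to 0.77 at E15.5 and 0.79 at P0.

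Rab3a (ENSMUSG00000031840) measured 205 and 241 CPM at E12.5, 362 and 376 (E14), 769 and 757 (E15.5), 825 and 839 (E17), and 1088 and 971 (P0). Its close relative Rab3c measured 13.5 and 12.9 CPM at E12.5, 23.3 and 25.7 (E14), 59.0 and 60.0 (E15.5), 56.8 and 61.3 (E17), and 48.1 and 52.6 (P0). Both were already called higher at E14, with log2 fold changes of 0.73 and 0.89 (adjusted p = 0.0382 and 0.0259), and again at E15.5. After E15.5 neither was called at any step: from E17 to P0 the fitted log2 change was 0.31 for Rab3a and -0.22 for Rab3c, and Rab3c ended below both of its E15.5 libraries, a difference that was not tested.

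The glycoproteins Sv2a and Sv2b, present on vesicles throughout the brain, took different courses. Sv2a measured 3.905 and 4.26 CPM at E12.5, 5.70 and 5.48 (E14), 8.74 and 7.39 (E15.5), 13.0 and 13.4 (E17), and 17.7 and 13.3 (P0). Sv2b measured 7.15 and 6.84 CPM at E12.5, 6.32 and 6.47 (E14), 3.77 and 3.88 (E15.5), 8.38 and 9.31 (E17), and 11.6 and 13.0 (P0). Sv2b fell at E15.5 (log2 change -0.74, SE 0.13, adjusted p = 0.00261), when most of the presynaptic genes rose, and then rose at E17 (1.20, SE 0.12, adjusted p = 0.00657), and its net change to P0 was the smallest of the group at 0.84. For Sv2b no library at E15.5 overlapped those of any other stage, and the call at E17 was lost without E15.5 replicate 1, E15.5 replicate 2 or E17 replicate 2.

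The other members of this group were Syp (synaptophysin), Syngr1 and Syngr3 (synaptogyrins), which are vesicle proteins that span the membrane, and Dnajc5, the cysteine string protein that chaperones SNARE proteins. From E12.5 to P0 their log2 fold changes ran from 1.07 for Syp to 2.48 for Syngr1. Syp measured 23.3 and 25.2 CPM at E14, then 26.6 and 23.7 (E15.5) and 38.2 and 37.8 (E17). The P0 libraries disagreed for these genes: Dnajc5 was at 282 CPM in replicate 1 and 457 in replicate 2, while Syp was at 54.8 and 35.8, Syngr1 at 43.2 and 23.4 and Syngr3 at 29.3 and 19.1. No change from E17 to P0 was called for any of these 4 genes.

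RefSeq promoter windows (GRCm38.p6, sequence mostly upstream of a gene's start) were at hand for 32 of the 40 genes, in 42 windows. They were searched on both strands for the RE1 element, the binding sequence of REST, a repressor that keeps many neuronal genes silent outside neurons. The element was spelled as TCAGCACC, any 2 bases, then GGACAG, and overlap with other motifs was not examined. With at most 1 mismatch it was present in 3 of the 42 windows (7.14%) and in 30 of all 32851 windows (0.0913%), and with at most 2 mismatches in the same number of the 42 and in 0.511% of all. No window of the 40 genes held it without a mismatch. Its first part alone was in 7.14% of the 42 windows and 1.65% of all, its last part alone in 26.2% and 22.2%, and the median GC content was 61.8% and 52.7%. The genes were Rph3a, Syn1 and Slc17a6. These are the gene that rose most within the vesicle group, a gene that rose at E15.5, and the gene that fell most of the 40. The part of the element in these changes was not tested. The sequences are shown because these members stand at opposite ends of the measured changes. They are written 5′ to 3′ on the strand of the gene with the element in capitals, and the element lies on the gene's own strand in Syn1 and on the other strand in Rph3a and Slc17a6. The Rph3a stretch is chr5:121009595-121009650, the Syn1 stretch is chrX:20921114-20921168, and for Slc17a6, where the match lies just past the start, only the match at chr7:51621864-51621879 is given.
Rph3a: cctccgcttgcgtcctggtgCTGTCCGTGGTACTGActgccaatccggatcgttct
Syn1: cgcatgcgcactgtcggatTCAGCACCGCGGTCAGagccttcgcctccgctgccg
Slc17a6: CTGTCCGTGGTCCTGA

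Of the 5 synaptotagmins, 4 were called higher at P0 than at E12.5 and 1 was called lower. Syt1, the calcium sensor for fast release in the forebrain, measured 9.79 and 7.93 CPM at E12.5, 11.5 and 13.9 (E14), 34.8 and 36.7 (E15.5), 68.6 and 67.8 (E17), and 45.6 and 63.0 (P0). It rose at E15.5 (log2 fold change 1.49, SE 0.18) and at E17 (0.93, SE 0.16, adjusted p = 0.0167). As for Syt4 and Syt5, the call at E17 was lost when any 1 of the 4 libraries of these stages was left out. Both P0 libraries lay below both E17 libraries, and that difference was not called (-0.32, SE 0.16, adjusted p = 0.191). Without P0 replicate 2 it was called.

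Syt11 (ENSMUSG00000068923), a synaptotagmin that does not act as a fast calcium sensor, ran the other way. It measured 147 and 132 CPM at E12.5, 110 and 117 (E14), 81.7 and 80.7 (E15.5), 118 and 100 (E17), and 70.6 and 72.1 (P0). Its level fell to E15.5 (log2 fold change from E14 -0.49, SE 0.11, adjusted p = 0.00906), rose at E17 (0.42, SE 0.11, adjusted p = 0.0488) and fell again to P0 (-0.60, SE 0.11, adjusted p = 0.00806). Over the whole period it changed by -0.96 (SE 0.11, adjusted p = 0.00011), and no P0 library overlapped an E12.5 library. The steps rest on few libraries: the call at E15.5 was lost without E14 replicate 2, E15.5 replicate 1 or E15.5 replicate 2, that at E17 was lost when any 1 of the 8 embryonic libraries was left out, and that at P0 was lost without E17 replicate 1, while the fall from E12.5 to P0 was called each time.

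Syt5 had the largest rise of the group. It measured 3.025 and 3.515 CPM at E12.5, 5.79 and 4.53 (E14), 11.0 and 11.2 (E15.5), 20.4 and 21.5 (E17), and 26.0 and 22.1 (P0), a log2 fold change of 2.84 (SE 0.17, adjusted p = 2.96e-06). Syt4, induced by neuronal activity, measured 13.97 and 16.2 CPM at E12.5 and 14.6 and 15.498 at E14, then rose at E15.5 (log2 fold change 1.47) and E17 (1.11) to 87.8 and 93.1 CPM, and stayed near that level at P0 with 97.8 and 86.6 CPM. Syt13, an atypical family member that binds no calcium, rested on few footprints, 4 and 12 counts at E12.5 and 32 and 85 at P0, and was called higher at P0 than at E17 (log2 fold change 1.13, SE 0.27, adjusted p = 0.0241). That call was lost without E17 replicate 1 or E17 replicate 2. It was also lost with DESeq2, with a replicate block, with sample quality weights and when only these 2 stages were fitted. The synaptotagmins were the role group with the highest median step at E17, 0.91, with 4 of 5 called.

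All 8 genes of the SNARE proteins and their regulators were called higher at P0 than at E12.5. Stx1a, the syntaxin of the plasma membrane, had the largest value. It measured 7.205 and 8.04 CPM at E12.5, 12.2 and 11.5 (E14), 27.2 and 28.4 (E15.5), 38.6 and 42.5 (E17), and 77.2 and 102 (P0), a log2 fold change of 3.55 (SE 0.16, adjusted p = 9.11e-07). Snap25, its partner on the plasma membrane, measured 34.9 and 33.6 CPM at E12.5, 190 and 200 at E15.5, and 360 and 444 at P0. Its log2 fold change over the period was 3.54 (SE 0.12), and each stage from E14 on lay above the one before.

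The complexins bind the assembled SNARE complex. Cplx1 measured 6.88 and 6.62 CPM at E12.5, 13.5 and 14.4 (E14), 40.1 and 43.2 (E15.5), 58.65 and 61.8 (E17), and 68.5 and 88.2 (P0). Cplx2 measured 32.3 and 28.1 CPM at E12.5, 45.9 and 44.2 (E14), 53.0 and 56.0 (E15.5), 79.3 and 81.3 (E17), and 127 and 159 (P0). Cplx1 was called at E14 (log2 fold change 1.05, SE 0.15, adjusted p = 0.0389), at E15.5 (1.57, SE 0.13) and at E17 (0.53, SE 0.13, adjusted p = 0.0386). The E17 call was lost when any E14, E15.5 or E17 library was left out. For Cplx2 the E14 value was 0.58 (SE 0.13, adjusted p = 0.0789) and the E15.5 value 0.27 (SE 0.13, adjusted p = 0.127), and neither was called, while it rose at E17 (0.56, SE 0.12, adjusted p = 0.0314) and P0 (0.83, SE 0.12, adjusted p = 0.00404). With either P0 library left out Cplx2 was also called at E14, and its call at E17 was lost without any 1 of the 6 libraries from E14 to E17.

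Nsf, the ATPase that takes spent SNARE complexes apart and acts in membrane traffic of all cells, rose least in this group. It measured 9.68 and 10.4 CPM at E12.5, 9.59 and 9.29 (E14), 13.4 and 13.1 (E15.5), 12.3 and 13.97 (E17), and 23.5 and 26.5 (P0). Most of its total of 1.32 on the log2 scale (SE 0.12) came at birth (0.95 from E17 to P0, SE 0.11, adjusted p = 0.00203). Napb, which recruits Nsf to the complexes, measured 12.3 and 11.0 CPM at E12.5 and 81.7 and 95.55 at P0. Vamp1 was sparse, with 13 and 46 counts at E12.5 and 45 and 226 at P0. Its rise from E17 to P0 was called in the main fit (1.46, SE 0.38, limma-voom, adjusted p = 0.0306). That call was lost without E17 replicate 1, E17 replicate 2, E14 replicate 1, E14 replicate 2 or P0 replicate 2. It was also lost with edgeR, with DESeq2, with sample quality weights and when only these 2 stages were fitted. At the step from E17 to P0, 7 of the 8 SNARE genes were called higher, all but Cplx1 (0.38, SE 0.13, adjusted p = 0.0644), and the median of the group was 0.77, the highest of the 6 roles.

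All 8 active zone genes were called higher as well, with the widest spread of any group that moved one way. Rims1 (ENSMUSG00000041670) encodes the scaffold that links vesicles, calcium channels and priming factors, and it rose more than any other of the 40. It measured 0.935 and 0.673 CPM at E12.5, 1.02 and 1.52 (E14), 7.17 and 8.07 (E15.5), 11.5 and 14.1 (E17), and 18.7 and 23.6 (P0), from 17 and 18 counts at E12.5 to 172 and 989 at P0. Its log2 fold change was 4.77 (SE 0.33, adjusted p = 6.8e-06), of which 2.55 (SE 0.26) fell on the step from E14 to E15.5. The paralog Rims2 measured 1.54 and 1.80 CPM at E12.5, 1.63 and 1.68 (E14), 2.14 and 2.41 (E15.5), 2.604 and 2.89 (E17), and 2.94 and 3.68 (P0). Its change of 1.03 (SE 0.18, adjusted p = 0.00135) was the smallest of the group, and it was not called at any single step.

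Erc1 and Erc2 encode the ELKS proteins, which bind Rims proteins at the active zone, and Erc1 is also made in many other tissues. Erc1 measured 46.2 and 41.1 CPM at E12.5, 48.9 and 50.7 (E14), 76.6 and 85.8 (E15.5), 79.2 and 90.6 (E17), and 88.4 and 124 (P0). Erc2 measured 3.80 and 4.19 CPM at E12.5, 5.83 and 6.72 (E14), 17.7 and 18.2 (E15.5), 20.4 and 24.6 (E17), and 21.7 and 31.0 (P0). The log2 fold change over the period was 1.28 (SE 0.17) for Erc1 and 2.73 (SE 0.21) for Erc2.

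The remaining active zone genes were Unc13a, the priming factor, Bsn and Pclo, the giant scaffolds bassoon and piccolo, and Ppfia3, a liprin that organises the release site. Their log2 fold changes from E12.5 to P0 were 2.09, 1.84, 2.66 and 2.17. Bsn rested on 10 and 18 counts at E12.5. Ppfia3 was the one gene whose E14 libraries lay far apart, at 17.2 and 8.62 CPM, and no single step of it was called.

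The endocytic genes moved as a compact group: all 5 were called higher at P0 than at E12.5, all 5 rose at E15.5 and 4 of 5 rose again at P0. Dnm1, the dynamin that cuts vesicles from the membrane of terminals, measured 24.0 and 25.2 CPM at E12.5, 34.8 and 37.8 (E14), 113 and 130 (E15.5), 139 and 154 (E17), and 317 and 256.5 (P0), a log2 fold change of 3.53 (SE 0.14, adjusted p = 5.63e-07). Synj1, a lipid phosphatase that acts in the shedding of clathrin coats, had the smallest change, 1.91 (SE 0.12, limma-voom, adjusted p = 4.08e-06). It measured 4.73 and 4.71 CPM at E12.5, 5.79 and 5.39 (E14), 10.9 and 11.5 (E15.5), 11.6 and 12.4 (E17), and 16.8 and 18.5 (P0). None of the 5 was called between E15.5 and E17, where the fitted values ran from -0.02 to 0.43 on the log2 scale.

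Snap91, a clathrin assembly protein, and Amph, which brings dynamin to the bud, had log2 fold changes of 2.74 and 2.65 from E12.5 to P0. Sh3gl2, an endophilin that bends the membrane, was the only endocytic gene called at E14. It measured 31.85 and 31.0 CPM at E12.5 and 56.0 and 54.7 at E14 (log2 fold change 0.82, SE 0.12, adjusted p = 0.0382), and 148 and 144 CPM at E15.5. The call at E14 was lost when any embryonic library was left out. At that step Snap91 and Dnm1 each had a value of 0.56 and were not called (adjusted p = 0.103 and 0.101). The P0 values of Sh3gl2, 161 and 186 CPM, were not called against E17.

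The 3 vesicular transporters did not share a direction. Slc32a1 (VGAT), which loads GABA and glycine and marks inhibitory terminals, measured 0.495 and 0.524 CPM at E12.5, 1.02 and 1.01 (E14), 2.05 and 1.69 (E15.5), 3.18 and 3.19 (E17), and 3.92 and 2.697 (P0), from 9 and 14 counts at E12.5 to 36 and 113 at P0. It rose by 2.49 on the log2 scale (SE 0.33, adjusted p = 0.000257). Markers of the inhibitory neuron lineage summed to 32.5 and 35.4 CPM at E12.5 and to 309 and 278 CPM at P0, with 9 of 10 called higher, and their part in the rise of Slc32a1 was not tested.

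Slc17a6 (VGLUT2, ENSMUSG00000030500), the glutamate transporter typical of thalamic and other subcortical neurons, measured 12.9 and 14.4 CPM at E12.5, 12.2 and 14.5 (E14), 7.11 and 8.70 (E15.5), 10.1 and 9.24 (E17), and 6.20 and 6.23 (P0). It fell at E15.5 (log2 change -0.77, SE 0.14, adjusted p = 0.00409) and at P0 (-0.63, SE 0.16, adjusted p = 0.0247), and over the whole period (-1.14, SE 0.15, adjusted p = 0.000306). The call at P0 was lost without E17 replicate 1, E17 replicate 2 or P0 replicate 2. Of 5 markers of thalamus and neighbouring regions that passed the filter, 3 were called lower (Tcf7l2, Lhx2 and Lhx9) and 2 higher (Rora and Calb2) from E12.5 to P0. The full list of 6 summed to 233 and 254 CPM at E12.5 and 67.7 and 66.2 CPM at P0, Lhx2 is also made by cortical progenitors, and the part of these cells in the fall of Slc17a6 was not tested.

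Slc17a7 (VGLUT1), the transporter of most mature cortical glutamatergic terminals, measured 6.05 and 5.87 CPM at E12.5, 7.73 and 8.84 (E14), 5.996 and 5.36 (E15.5), 6.92 and 7.10 (E17), and 10.2 and 6.80 (P0). Its change over the period was 0.40 (SE 0.19, adjusted p = 0.1001), and the P0 libraries lay further apart than those of any other stage. It was called without P0 replicate 2 (0.82). From E14 to E15.5 it was called lower (-0.54, SE 0.18, adjusted p = 0.0455), and that call was lost when any 1 of the 8 embryonic libraries was left out.

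**Figure D3:**
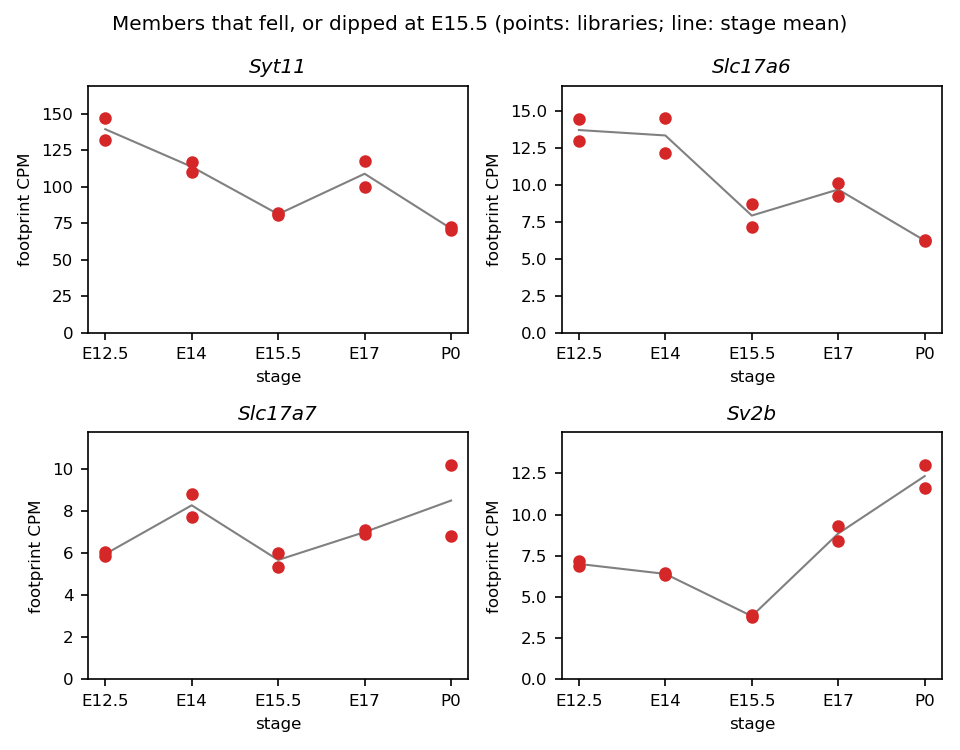
Footprint CPM (vertical axis, from 0) by stage (horizontal axis) for Syt11, Slc17a6, Slc17a7 and Sv2b, with a point for each library and a grey line through the stage means. These 4 genes were called lower at E15.5, when 29 of the 40 were called higher, and each had a higher mean at E17 than at E15.5.

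Pairs of related members were also compared within a library, as the log2 ratio of their counts, which does not depend on scaling between libraries. An exact permutation test over all ways of putting the 10 libraries into pairs asked whether the ratio varied between stages more than within them, for 13 pairs with Benjamini-Hochberg adjustment. The smallest p it can give is 0.00106. For 7 of 13 pairs the adjusted p was under 0.05. Genes differ in length, so the size of a ratio says nothing about amounts, and the change of the ratio over the stages is the measured quantity.

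The ratio of Rims1 to Rims2 rose 13.1-fold, from -1.05 on the log2 scale at E12.5 to 1.74 at E15.5 and 2.66 at P0, and that of Syt1 to Syt11 rose 11.8-fold, from -3.98 to -1.18 and -0.41 (exact permutation test, adjusted p = 0.0055 each). The ratios of Erc2 to Erc1 and of Cplx1 to Cplx2 rose 2.701-fold and 2.443-fold (adjusted p = 0.0055 each by the same exact test). For Cplx1 to Cplx2 the peak was at E15.5 and E17, at -0.39 and -0.41, and the value at P0 was -0.87. Sv2a to Sv2b also peaked at E15.5, at 1.07, between -0.77 at E12.5 and 0.32 at P0 (exact permutation test, adjusted p = 0.0055). Slc17a7 to Slc17a6 rose 3.06-fold, from -1.19 to 0.42 (exact permutation test, adjusted p = 0.0183), and Rab3a to Rab3c dipped from 4.07 at E12.5 to 3.68 at E15.5 and stood at 4.35 at P0 (exact permutation test, adjusted p = 0.0197).

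The other 6 pairs did not pass. Syn1 to Syn2 came closest, with an adjusted p of 0.0585 in the exact permutation test: its libraries fell into a lower level at E12.5 and E14 (-0.74 to -0.47) and an upper level from E15.5 on (0.65 to 0.90), with little change between the stages inside each level. Syngr1 to Syngr3, Syt1 to Syt13, Syt1 to Syt4, Vamp2 to Vamp1 and Bsn to Pclo had adjusted p-values of 0.116 to 0.303 in the same exact test. Without P0 replicate 1 alone, Rab3a to Rab3c no longer passed (adjusted p = 0.124) and Bsn to Pclo did (adjusted p = 0.00344, both by the exact permutation test). Without both P0 libraries, 6 pairs passed: Slc17a7 to Slc17a6 and Rab3a to Rab3c no longer did, and Bsn to Pclo did. The exact permutation test then had only 105 groupings and a smallest p of 0.00952, so it was coarser than with all libraries.

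**Figure D4:**
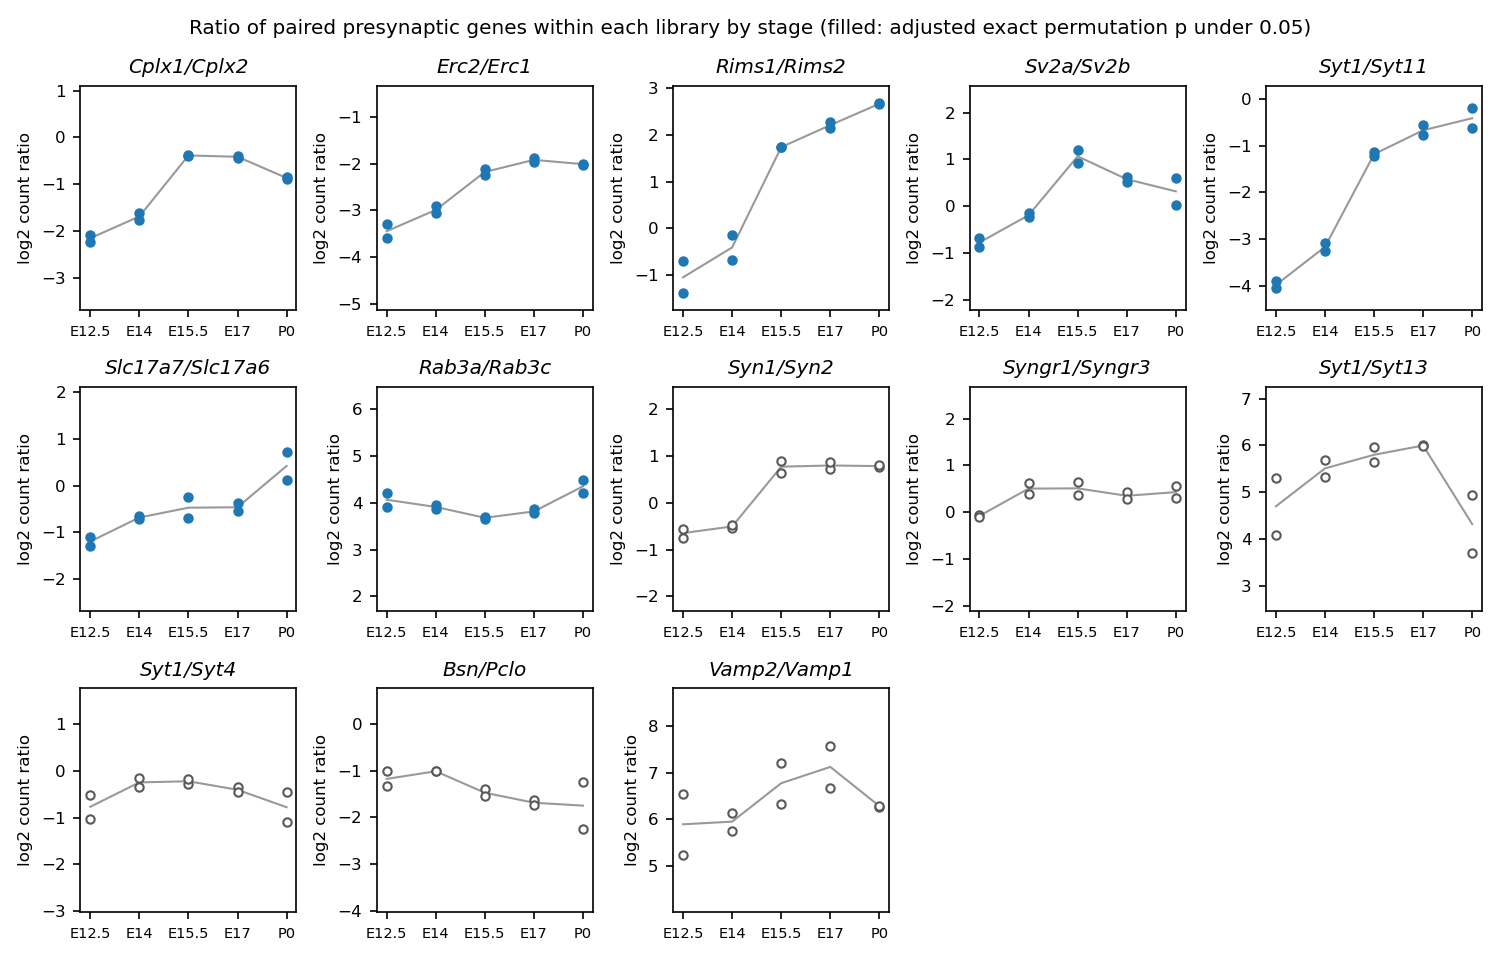
Log2 ratio of the counts of paired presynaptic genes (vertical axes, all of equal span) by stage (horizontal axes), with a point for each library, a line through the stage means, and filled points for the 7 of 13 pairs whose adjusted exact permutation p was under 0.05. Rims1/Rims2 and Syt1/Syt11 climb most, from -1.05 to 2.66 and from -3.98 to -0.41.

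The step at E15.5 was shared with neuron markers. All 10 markers of postmitotic neurons were called higher from E14 to E15.5, with a median log2 fold change of 1.18, and all 10 from E12.5 to P0, with a median of 2.34. Summed presynaptic footprints amounted to 39.2% and 39.8% of the summed neuron marker footprints at E12.5, to 37.7% and 39.8% (E14), 33.0% and 32.3% (E15.5), 36.4% and 36.0% (E17), and 38.8% and 36.0% (P0). This ratio therefore stayed within 32.3% and 39.8%, and was lowest at E15.5, while the presynaptic sum rose 4.36-fold. The 5 genes with most counts supplied 58.3% to 64.5% of the presynaptic footprints in each library, so the sums mainly describe abundant genes. From footprints of bulk tissue alone, more cells of a type and more messenger RNA or translation per cell cannot be told apart. The paper also measured messenger RNA in the same lysates, and those values were not used here.

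Markers of tissues next to the neocortex changed at the same step. Choroid plexus markers summed to 331 and 278 CPM at E12.5, 1121 and 1127 at E14, and 5.43 to 14.4 CPM from E15.5 on, with 5 of 5 tested called lower at E15.5. Meninges markers summed to 98.0 and 101 CPM at E12.5, 62.9 and 71.3 at E14, and 2.53 to 7.14 CPM from E15.5 on, with 6 of 6 called lower at E15.5. At P0 the choroid plexus marker Kcnj13 was at 0 in both libraries and the other tested markers of both lists were still found. The part of these tissues in the presynaptic changes was not tested.

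**Figure D5:**
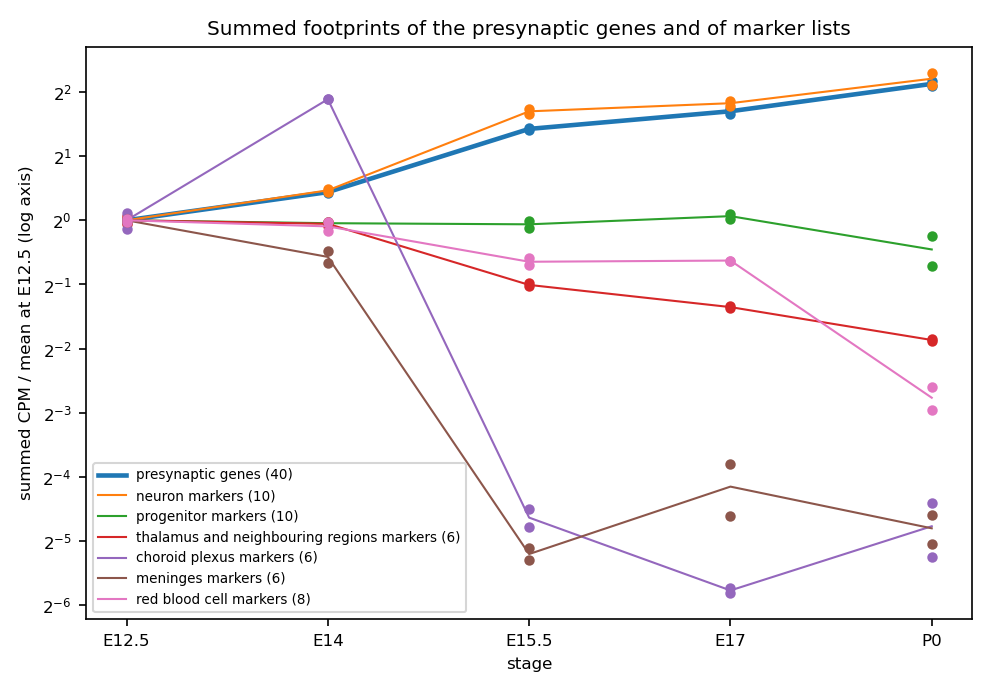
Summed footprint CPM of the 40 presynaptic genes and of 6 marker lists (number of genes in brackets), each divided by its mean at E12.5, on a log2 axis (vertical) by stage (horizontal), with a point for each library and a line through the stage means. The presynaptic sum (thick line) and the neuron markers rise side by side, while choroid plexus and meninges markers drop between E14 and E15.5. From E15.5 on the progenitor sum is mostly that of Fabp7.

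Beyond the 40, a wider list of 75 genes of the vesicle cycle was followed, of which 74 were found and 70 passed the filter. Of these 70, 51 were called higher and 6 lower from E12.5 to P0 (background 30.1% and 32%), with a median log2 fold change of 1.29. Sparse genes such as Unc13c (mean 0.22 CPM at E17 and 0.67 at P0) lay near the filter. By step, 2 were called higher at E14 (background 0.497%). Higher and lower calls were then 30 and 6 (E15.5, background 16.5% and 19.6%), 8 and 1 (E17, 5.61% and 3.43%), and 29 and 2 (P0, 9.46% and 11.1%).

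The largest rises among the 70 were those of Cplx3, Rimbp2 and Rims4. Cplx3, a complexin known from the retina and from subplate neurons of the cortex, passed the filter only through P0, so its place among the rises follows from the filter. It had 0 counts in both E12.5 libraries, 12 at most in any library before P0, and 47 and 234 counts at P0, at least 82.3-fold higher against a floor of 3 counts over the E12.5 group. Rimbp2, which links Rims proteins to calcium channels, went from a mean of 0.518 to 17.8 CPM (log2 fold change 5.07, SE 0.27), and Rims4, a short Rims protein, from 0.602 to 13.1 CPM (4.33, SE 0.32). The lowest values were those of Sncg, Syngr2 and Vamp3. Sncg, a synuclein abundant in peripheral neurons, fell from 29 and 24 counts at E12.5 to 0 and 2 counts at P0. These counts are not scaled by library size, and the fitted log2 fold change was -4.32 (SE 1.30, limma-voom, adjusted p = 0.0189). Sncg passed the filter only through E12.5 and E14, so its place among the lowest values follows from the filter. Syngr2 and Vamp3, relatives of Syngr1 and Vamp2 that act in cells of many kinds, changed by -2.74 (SE 0.21) and -1.46 (SE 0.16), and thus in the opposite direction to the neuronal members of their families.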

How the data were processed

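The authors deposited a table of footprint counts per gene (whole numbers, not normalized), with 1 column per library, and all columns were used. According to the methods, adapters were removed, repeated read sequences were merged, reads from ribosomal, transfer and small nucleolar RNA were removed, and the remainder was aligned with STAR (version 2.7.0 in the submitters' processing notes) against GENCODE M12, keeping reads with several matches. DeepShape-prime (isoform estimates) and tximport (gene counts corrected for length) are named in the methods, but it is unclear if the deposited whole-number counts were made that way and how such reads were divided among genes, so genes with near-identical copies are uncertain. The table holds no transcript lengths, so levels were compared within a gene only.

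Of 22373 identifiers, 22274 matched a symbol. Counts were analysed in R 4.3.3 with genes of at least 32 footprints summed over the libraries of any stage. TMM factors (edgeR 4.0.16) and limma-voom (limma 3.58.1), with stage as the only term over all 10 libraries, gave two-sided tests adjusted by Benjamini-Hochberg over 13484 genes. Calls required an adjusted p below 0.05 and an absolute log2 fold change of 0.32 or more, the study's fold threshold. CPM are counts relative to the TMM-scaled library size. The 5 comparisons were the 4 adjacent steps and P0 versus E12.5. Pair ratios used counts plus 0.5. edgeR's quasi-likelihood test and DESeq2 1.42.0 were run as alternatives, with other scalings, filters and sets of libraries. The fit and the ratio test were tested on simulated data. Depth ranged from 7544404 to 36129988 counts, which limits genes such as Syt13, Bsn and Slc32a1 most. Bounds against 0 counts use a floor of 3 counts and cover counting error only.

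The 40 genes, the wider list and the markers were chosen with earlier results of these data known. Within each role, values in all libraries are given for the members with the largest and the smallest change from E12.5 to P0, for members not called in that comparison and for described pairs. In the wider list the 3 largest rises and 3 lowest values are named. A few further members were picked after their values were seen.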

Additional observations from a re-analysis of the deposited data

How the results depend on the processing

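From E12.5 to P0 the count of 39 called presynaptic genes kept within 34 to 40 under all alternatives, where the stricter filter (mean count of at least 100) tested 35 genes, and no direction turned. Vamp1 lost its call with sample quality weights. The count of 33 from E14 to E15.5 ranged from 23 to 35 when 1 library was left out. The count of 6 from E12.5 to E14 became 14 with DESeq2, 13 with sample quality weights, 1 with no filter on low counts, 0 when only the 2 stages were fitted, 18 without the P0 libraries (chosen after seeing the data) and 0 to 18 when 1 library was left out. The count of 13 from E15.5 to E17 became 8 with edgeR, 6 with no filter, 20 without the P0 libraries and 0 to 18 when 1 library was left out. The count of 20 from E17 to P0 became 9 with sample quality weights, 0 when only the 2 stages were fitted and 6 to 26 when 1 library was left out. Calls over all genes shifted too. At E14, 67 genes were called higher in the main fit, 266 with DESeq2, 402 with sample quality weights and 22 with no filter. At E17, 757 were called higher in the main fit, 601 with edgeR and 501 with no filter. From E17 to P0, 1275 were called higher and 1492 lower in the main fit, and 398 and 300 with sample quality weights. The cause of these shifts was not tested. The median log2 fold change moved with total counts alone to 1.32 at E15.5, 0.38 at E17, 0.53 at P0 and 2.89 over the whole period, and over the whole period to 2.48 with the stricter filter. It ranged from 0.32 to 0.39 at E17, 0.35 to 0.55 at P0 and 2.26 to 2.46 over the whole period when 1 library was left out. The number of pair ratios that passed was 7 with a pseudocount of 5 and without either P0 library, and 6 without both, but not the same pairs: Rab3a to Rab3c dropped out and Bsn to Pclo came in without P0 replicate 1.

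The labels number the replicates alike at each stage. Deviations of same-numbered libraries correlated over 0.1 in 3 of 10 pairs of stages, from -0.67 to 0.27, and the main fit used no pairing by number. The lowest value was that between E12.5 and P0. With 2 libraries per stage, a negative value means that libraries with opposite numbers deviate alike. Whether libraries of different stages share a factor was not tested. With a replicate block, 0 presynaptic genes were called at E14 (25 at an unadjusted p under 0.05), 8 at E17 and 39 from E12.5 to P0. Over all genes, that fit called 2 higher at E14, 524 at E17 and 3900 from E12.5 to P0.

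Depth limits the sparse members: Syt13, Slc32a1, Bsn and Rims1 had under 20 counts in each E12.5 library.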
